A study of Homo sapiens with 6 samples.

Results

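The serpins are a family of proteins that share 1 fold, and most of them inhibit serine proteases. The members described here are all probe sets whose gene symbol is SERPIN followed by a clade letter from A to I and a number. There were 32 such genes among 24726 probe sets, each of which stands for 1 gene ID. They comprise 11 genes of clade A, 11 of clade B, 2 each of clades E, F and I, and 1 each of clades C, D, G and H. Each was taken by its symbol, but the family itself was chosen with earlier results of these data known. Of other serpin genes, only AGT and 2 pseudogenes are given further on.

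The samples were 6 subcutaneous tumours of nude mice, grown from Huh7, which is an established line of human hepatocellular carcinoma. In 3 tumours (IR-A) the injected cells had been stably transfected with pRcCMVi.hIR-A(GFP), which expresses isoform A of the human insulin receptor together with a green fluorescent protein. In the other 3 tumours (control) they carried the empty vector. Cells of both groups had been selected with G418 and sorted for the fluorescence. The labels describe selected cell populations and name no separate clones or mice, so p-values measure the spread between these tumours, which may be technical. Nude mice lack T cells but keep myeloid cells, vessels and fibroblasts of their own. The arrays carry probe sets of human genes, which read mouse RNA only where it binds to them. The values are log2 signals from Affymetrix arrays, 1 array per tumour, so that a difference of 1 is a doubling of signal.

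A serpin presents an exposed reactive centre loop to its target protease. When the loop is cut, the serpin springs into a new shape and traps the protease in a covalent complex, so each molecule works once. Hepatocytes secrete most of the serpins of blood plasma, which restrain neutrophil proteases, clotting, fibrin breakdown, complement and kinin release. Some members have lost inhibition and carry hormones or fold collagen instead. Clade B members mostly lack a classical signal peptide and act inside cells or at epithelial surfaces.

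The receptor gene checked the labels. INSR read 10.65, 11.31 and 11.01 in IR-A tumours, against 8.04, 7.61 and 8.47 in control tumours, a log2 difference of 2.95 (SE 0.26; adjusted p = 0.0769 in limma). The probe set does not separate isoforms of the receptor. Hepatocyte markers were bright in every tumour, and all 11 of 11 measured markers lay above the median probe set (4.71). Control tumour 2 stood apart, with a mean correlation of 0.987 with the IR-A arrays and 0.982 with the other control arrays. Some results, among them the count of serpin genes called, are therefore also given without it.

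The plasma serpins of the liver made up most of the differences. In IR-A tumours 13 of 32 serpin genes had higher signal at an unadjusted p under 0.05 in limma, against 7.10% of all probe sets and 12.2% of the probe sets above the median level. They were SERPINA3, SERPINA4, SERPINA5, SERPINA7, SERPINA10, SERPINB1, SERPINB9, SERPINC1, SERPIND1, SERPINF1, SERPINF2, SERPING1 and SERPINI1. Of these 13, 12 belonged to the 18 members above the median level, and 1, SERPINA7, to the 14 below it. Lower signal at that p was seen for 1 of 32, SERPINA12, against 7.03% of all probe sets. None of the 32 passed after Benjamini-Hochberg adjustment over all probe sets (lowest adjusted p = 0.129), where 0% of all probe sets passed. The groups did not overlap in 12 members with higher and 2 with lower IR-A values, against 7.73% and 9.45% of all probe sets. The median difference of the 32 genes was -0.00081, against -0.03 over all probe sets, and 18 members did not reach an unadjusted p of 0.05 in either direction.

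Without control tumour 2, the same test called SERPINA3 (adjusted p = 0.0395) and SERPINA5 (adjusted p = 0.0482), 2 of 32 members against 0.797% of all probe sets. In 11 of the 13 genes with higher signal, control tumour 2 read highest of the controls, and in all 13 the difference was larger without it. Leaving out a control that reads above the control mean always enlarges such a difference. Control tumour 2 was set apart in these same data, so the larger differences and the 2 calls add no separate support. Without IR-A tumour 1 the count was 7 in place of 13, and those genes were SERPINA3, SERPINA4, SERPINA5, SERPINA7, SERPINA10, SERPINB9 and SERPIND1. These 7 genes kept an unadjusted p under 0.05 with any 1 of the 6 tumours left out. An exact permutation test of 3 against 3 tumours cannot go below p = 0.1, so only the fit across all probe sets was used.

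**Figure D1:**
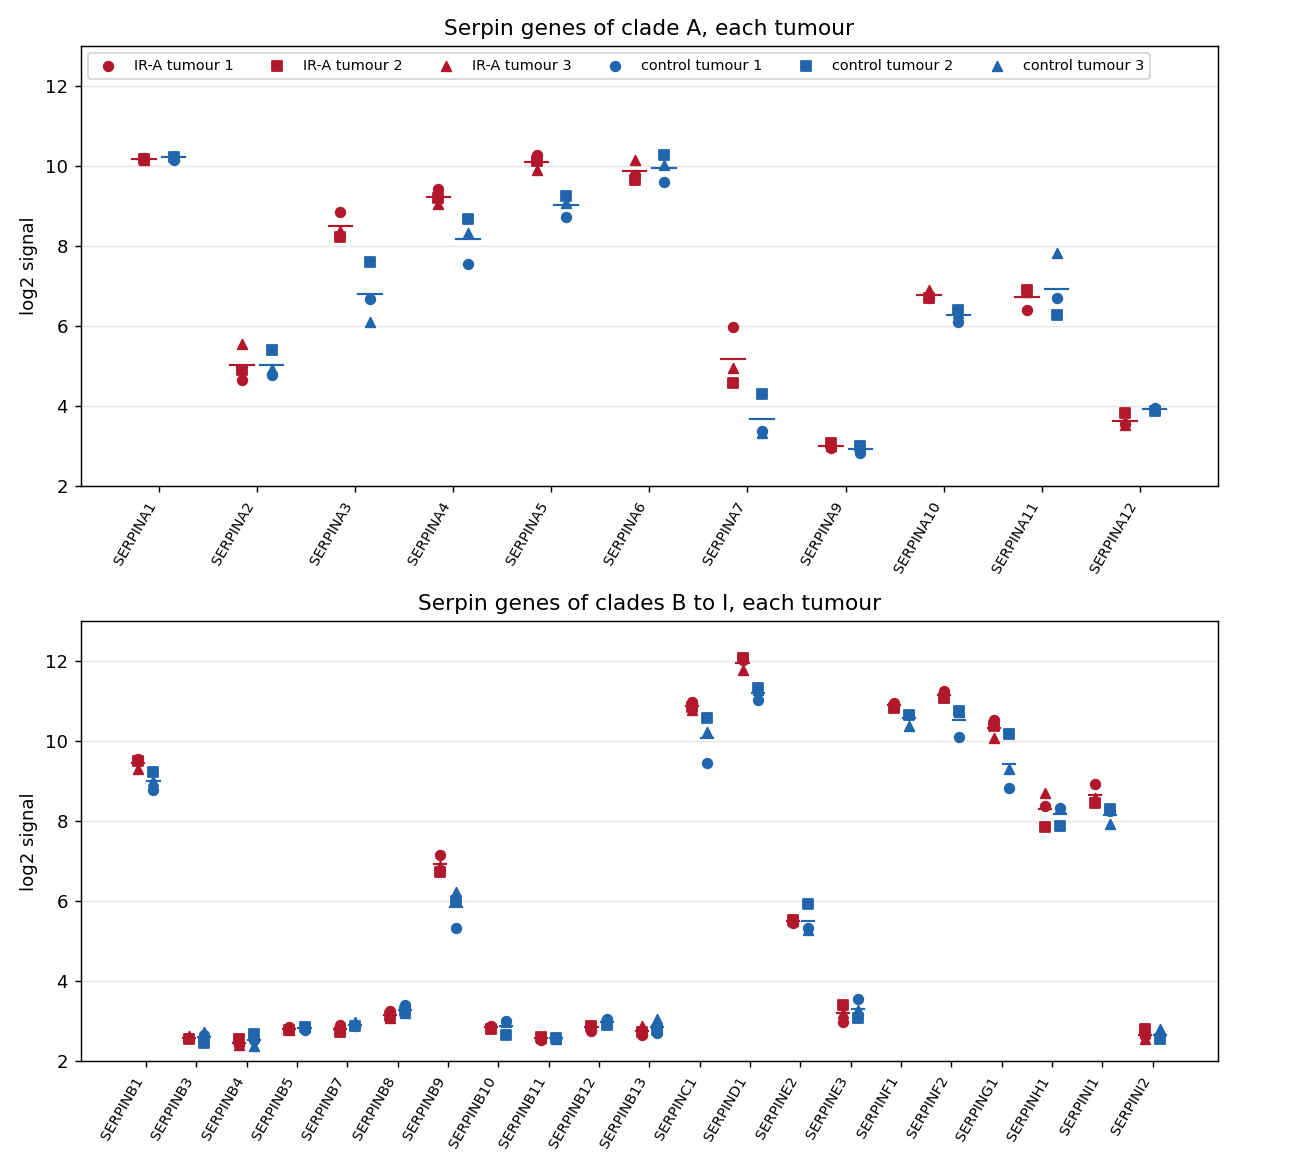
Log2 signal of each serpin gene in every tumour, with clade A in the upper panel and clades B to I in the lower one. IR-A tumours are red on the left and control tumours blue on the right, marker shapes give the tumour number and short lines the group means. SERPINA5 read 9.89 to 10.28 in IR-A tumours and 8.73 to 9.26 in control tumours, while SERPINA1 read 10.15 to 10.19 and 10.15 to 10.26.

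**Figure D2:**
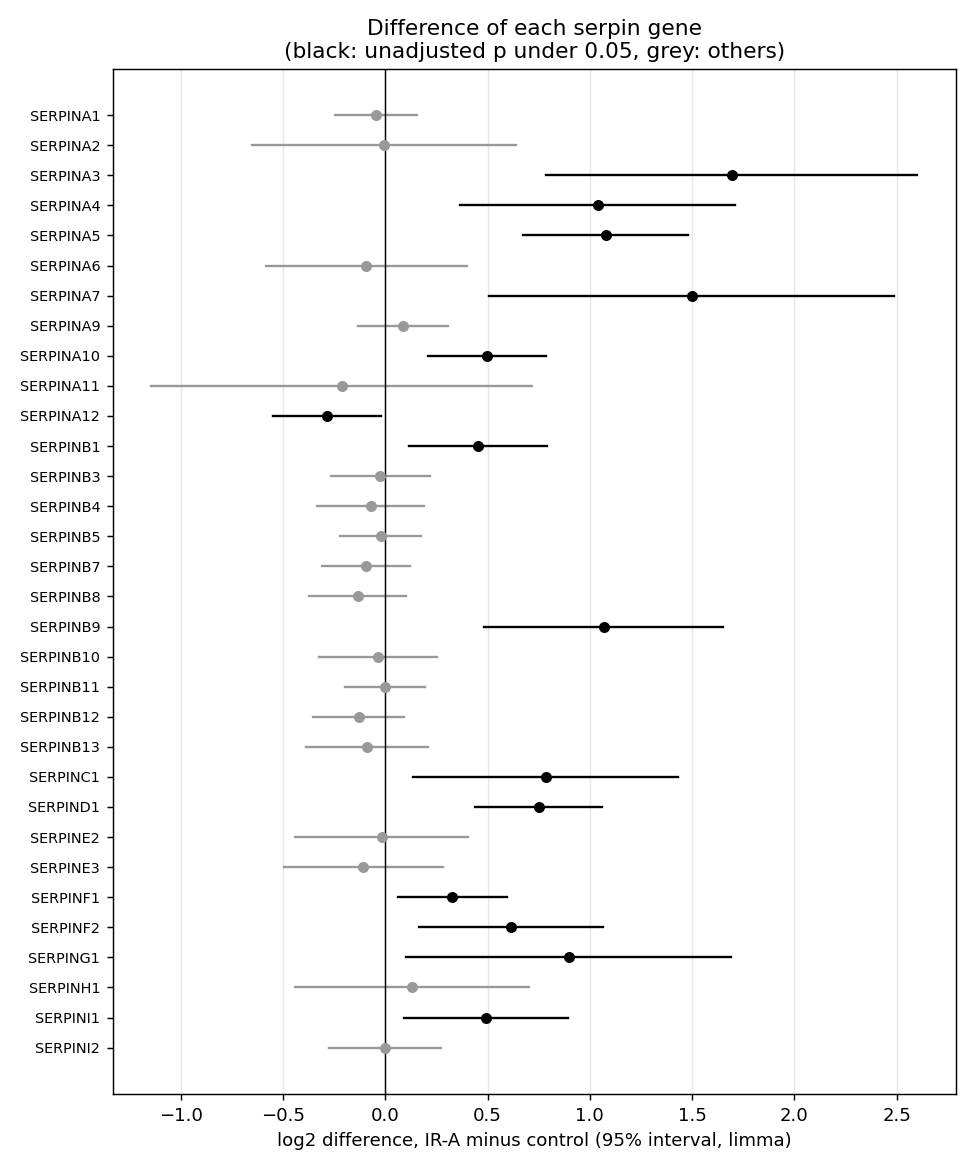
Log2 difference, IR-A minus control, of each of the 32 serpin genes with its 95% interval from limma. Black marks genes with an unadjusted p under 0.05, 13 to the right of 0 and 1 to the left, and grey marks the other 18.

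Among inhibitors of inflammatory proteases, SERPINA3, SERPINB1 and SERPINB9 had higher signal at an unadjusted p under 0.05. SERPINA3 encodes alpha-1-antichymotrypsin, an acute phase inhibitor of neutrophil cathepsin G and mast cell chymase. It read 8.86, 8.23 and 8.38 in IR-A tumours, against 6.67, 7.61 and 6.11 in control tumours. All IR-A values lay above all control values, and control tumour 2 lay between the other controls and the IR-A tumours. The log2 difference was 1.69 (SE 0.38, 95% interval 0.79 to 2.60; 3.23-fold), with an adjusted p = 0.161 in limma. Without control tumour 2 the difference was 2.10. SERPINA1, which encodes alpha-1-antitrypsin, the main plasma inhibitor of neutrophil elastase, read 10.19, 10.17 and 10.15 in IR-A tumours, against 10.15, 10.24 and 10.26 in control tumours. Its values overlapped, and the interval of the difference ran from -0.25 to 0.15. Both are acute phase proteins of the liver, and the difference between them was not tested.

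SERPINB1 and SERPINB9 are intracellular. SERPINB1 inhibits neutrophil elastase, cathepsin G and proteinase 3, and read 9.56, 9.52 and 9.31 in IR-A tumours, against 8.79, 9.24 and 8.99 in control tumours. All IR-A values were above all control values, and the log2 difference was 0.45 (SE 0.14; adjusted p = 0.243 in limma). With a tumour left out, its unadjusted p stayed under 0.05 in 4 of 6 settings. SERPINB9, which protects cells from granzyme B, read 7.16, 6.74 and 6.87 in IR-A tumours, against 5.33, 6.02 and 6.22 in control tumours. Here control tumour 1, not control tumour 2, was the array farthest from its group. The log2 difference was 1.07 (SE 0.24, 95% interval 0.48 to 1.65; adjusted p = 0.165 in limma). It was 0.80 to 1.25 with any 1 tumour left out.

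The plasma inhibitors of clotting proteases SERPINC1, SERPIND1, SERPINA5 and SERPINA10 all had higher signal at an unadjusted p under 0.05. SERPINC1 encodes antithrombin, which blocks thrombin and factor Xa when heparin is bound. It read 10.97, 10.84 and 10.79 in IR-A tumours, against 9.46, 10.57 and 10.22 in control tumours. No control value reached the IR-A values, but control tumour 2 lay just below them and control tumour 1 far below. The log2 difference of 0.78 (SE 0.27; adjusted p = 0.282 in limma) was 0.47 to 1.03 over the left-out tumours, and the unadjusted p passed 0.05 in 3 of those 6 settings. SERPIND1 encodes heparin cofactor II, an inhibitor of thrombin. It read 12.03, 12.07 and 11.78 in IR-A tumours, against 11.02, 11.33 and 11.28 in control tumours. The 2 groups were each tight, with an SD of 0.16 in both, and differed by 0.75 (SE 0.13, 95% interval 0.44 to 1.06; adjusted p = 0.140 in limma).

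SERPINA5, the protein C inhibitor, also acts on the plasminogen activator urokinase and on kallikreins. It read 10.28, 10.13 and 9.89 in IR-A tumours, against 8.73, 9.26 and 9.08 in control tumours. The gap between the lowest IR-A and the highest control tumour was wider than the range of either group. Its log2 difference of 1.08 (SE 0.17, 95% interval 0.67 to 1.48; 2.11-fold) had the lowest p of the 32 members (adjusted p = 0.129 in limma). SERPINA10, the protein Z-dependent inhibitor of factor Xa and factor XIa, read 6.71, 6.71 and 6.91 in IR-A tumours, against 6.09, 6.41 and 6.33 in control tumours. Its lowest IR-A value was above its highest control value, at a log2 difference of 0.50 (SE 0.12; adjusted p = 0.175 in limma).

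Serpins of the complement, kinin and fibrin systems were next. SERPING1 encodes the C1 inhibitor, which blocks the first complement proteases, plasma kallikrein and factor XIIa. It read 10.52, 10.38 and 10.09 in IR-A tumours, against 8.82, 10.17 and 9.31 in control tumours. Control tumour 2 lay above IR-A tumour 3, so the groups overlapped. The log2 difference of 0.90 (SE 0.33; adjusted p = 0.308 in limma) was 1.26 without control tumour 2 and 0.59 without control tumour 1, and the unadjusted p passed 0.05 in 2 of 6 settings with a tumour left out. SERPINA4 encodes kallistatin, an inhibitor of tissue kallikrein, and read 9.43, 9.19 and 9.06 in IR-A tumours, against 7.56, 8.67 and 8.33 in control tumours. The groups did not overlap, and the log2 difference was 1.04 (SE 0.28; adjusted p = 0.205 in limma). That difference was 0.72 without control tumour 1, which read lowest. SERPINF2 encodes alpha-2-antiplasmin, which stops plasmin from dissolving fibrin. It read 11.27, 11.09 and 11.10 in IR-A tumours, against 10.12, 10.77 and 10.73 in control tumours, a log2 difference of 0.61 (SE 0.19; adjusted p = 0.240 in limma). Control tumour 1 was the lowest control, and without it the difference was 0.40.

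SERPINI1 encodes neuroserpin, an inhibitor of tissue plasminogen activator best known from neurons. It read 8.94, 8.45 and 8.57 in IR-A tumours, against 8.25, 8.30 and 7.93 in control tumours. IR-A tumour 1 was the highest array, the groups did not overlap, and the log2 difference was 0.49 (SE 0.17; adjusted p = 0.276 in limma). With a tumour left out, its unadjusted p stayed under 0.05 in 4 of 6 settings. SERPINE2, protease nexin-1, which inhibits thrombin and urokinase at cell surfaces, overlapped between groups, at 5.50 ± 0.04 in IR-A tumours and 5.52 ± 0.35 in control tumours (SD, n = 3 each). Its interval ran from -0.44 to 0.41.

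Some members do not inhibit proteases. SERPINA7 encodes thyroxine-binding globulin, a hormone carrier of plasma. It read 5.98, 4.58 and 4.95 in IR-A tumours, against 3.38, 4.30 and 3.34 in control tumours. The values did not overlap, but IR-A tumour 1 and control tumour 2 were each high for their group, and the mean over all arrays lay below the median probe set. Its log2 difference of 1.50 had a wide interval from 0.51 to 2.49 (SE 0.41; adjusted p = 0.212 in limma). SERPINA6, the corticosteroid-binding globulin, overlapped between groups, at 9.87 ± 0.26 in IR-A tumours and 9.96 ± 0.33 in control tumours (SD, n = 3 each), with an interval from -0.58 to 0.40.

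SERPINF1 encodes pigment epithelium-derived factor, a secreted protein known for blocking vessel growth. It read 10.96, 10.83 and 10.91 in IR-A tumours, against 10.67, 10.67 and 10.38 in control tumours. Values of both groups were separate, at a small log2 difference of 0.33 (SE 0.11; adjusted p = 0.276 in limma). SERPINH1, the collagen chaperone of the endoplasmic reticulum also called HSP47, read 8.38, 7.86 and 8.70 in IR-A tumours, against 8.33, 7.87 and 8.33 in control tumours. The values overlapped fully, and the interval ran from -0.44 to 0.70. Of 12 genes that modify or fold collagen beside SERPINH1, 2 were higher and 2 lower at an unadjusted p under 0.05. The shares over all probe sets were 7.10% and 7.03%, with 12.2% higher above the median level, and none of the 12 passed after adjustment. The prolyl hydroxylases P4HA2 (0.73, SE 0.22) and P3H1 (0.34) had higher signal, and the lysyl hydroxylase PLOD3 (-0.24) and the cartilage-associated protein CRTAP (-0.54) lower signal. P4HA2 differed by 0.48 without control tumour 1, and CRTAP by -0.30 without IR-A tumour 2.

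SERPINA12, the adipokine vaspin, was the member with lower signal. It read 3.55, 3.83 and 3.53 in IR-A tumours, against 3.94, 3.88 and 3.94 in control tumours. All of these lay below the median probe set, and IR-A tumour 2 came close to control tumour 2. The log2 difference of -0.29 (SE 0.11; adjusted p = 0.324 in limma) kept an unadjusted p under 0.05 in 1 of 6 settings with a tumour left out. SERPINB12 read 2.77, 2.90 and 2.90 in IR-A tumours, against 3.07, 2.91 and 2.98 in control tumours. The groups did not overlap, yet the difference of -0.13 was small and did not reach an unadjusted p of 0.05 (adjusted p = 0.606 in limma).

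The remaining members showed no separation. SERPINA2, which RefSeq lists as a transcribed pseudogene beside SERPINA1, differed by -0.01 and shares sequence with SERPINA1, so the source of its signal is uncertain. SERPINA11 read 6.41, 6.90 and 6.86 in IR-A tumours, against 6.69, 6.29 and 7.83 in control tumours, and control tumour 3 alone lay outside the other values. SERPINA9, a gene of germinal centre B cells, and SERPINI2, a gene of the pancreas, read below the median probe set in all tumours, as did SERPINE3. Among clade B, 9 of 11 genes were below the median probe set. They include the squamous cell carcinoma antigens SERPINB3 and SERPINB4, the breast epithelial protein SERPINB5 (maspin), SERPINB7 (megsin), SERPINB8, SERPINB10, SERPINB11 and SERPINB13. Their differences lay between -0.14 and 0.00062. SERPINB3 and SERPINB4 are close copies of each other, so the source of either signal is uncertain.

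**Figure D3:**
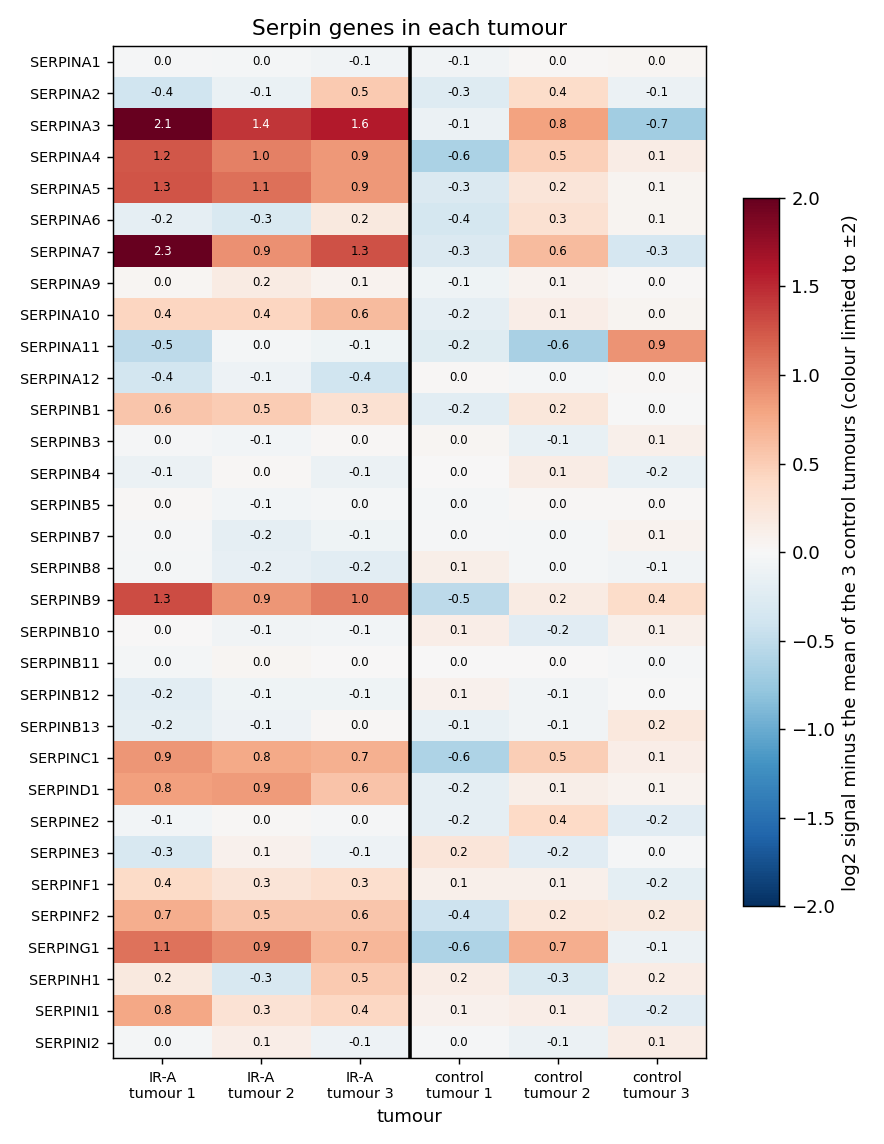
Log2 signal of each serpin gene in each tumour minus the mean of the 3 control tumours, with the IR-A tumours on the left and the control tumours on the right. In SERPINA3, SERPINC1 and SERPING1 control tumour 2 lies above the other controls, at 7.61, 10.57 and 10.17, and the clade B genes other than SERPINB1 and SERPINB9 stay near 0.

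Many serpin genes lie in clusters. On chromosome 14 the 10 measured genes follow each other in the order SERPINA10, SERPINA6, SERPINA2, SERPINA1, SERPINA11, SERPINA9, SERPINA12, SERPINA4, SERPINA5 and SERPINA3 in RefSeq annotation of GRCh38.p14. Neighbouring SERPINA4, SERPINA5 and SERPINA3 at the end of that order all had higher signal (1.04, 1.08 and 1.69), as did SERPINA10 at its start (0.50). None of the genes between them had higher signal at an unadjusted p under 0.05, and SERPINA6 (-0.09) and SERPINA1 (-0.05), well above the median probe set, lay within their spread. On chromosome 18, all 9 measured clade B genes were dim, and 0 of 9 reached an unadjusted p under 0.05. On chromosome 6, SERPINB1 and SERPINB9 both had higher signal, and so did SERPINF2 and SERPINF1 on chromosome 17. No difference between clusters was tested.

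**Figure D4:**
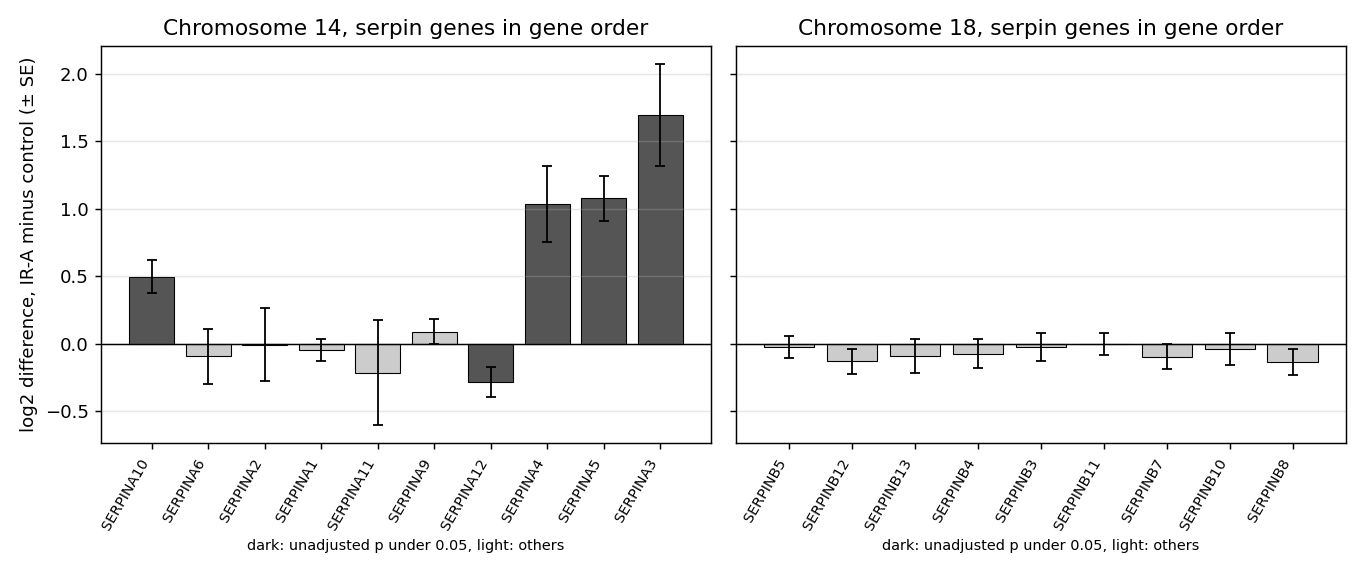
Log2 difference, IR-A minus control, with its SE for the serpin genes of chromosome 14 (left) and chromosome 18 (right) in gene order. Dark bars have an unadjusted p under 0.05. The bars of SERPINA4, SERPINA5 and SERPINA3 (1.04, 1.08 and 1.69) stand beside each other, and those of chromosome 18 lie between -0.14 and 0.00062.

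The upstream sequences of 5 genes of the chromosome 14 cluster, chosen with their values known, are shown side by side. SERPINA6 and SERPINA1 overlapped between groups, while SERPINA4, SERPINA5 and SERPINA3 did not. Windows of SERPINA10, SERPINA11, SERPINA9 and SERPINA12 in the same cluster are not shown. Each run gives the 250 bases before a RefSeq transcript start in GRCh38.p14, 5′ to 3′ on the strand of the gene. Capitals mark matches, on either strand, to GTTAAT, a core of the site of the liver factors HNF1, and to TTCNNNGAA, the core that STAT factors recognise. SERPINA1 has 2 annotated starts, and the one with a match is shown.
SERPINA6, chr14:94323337-94323586, minus strand: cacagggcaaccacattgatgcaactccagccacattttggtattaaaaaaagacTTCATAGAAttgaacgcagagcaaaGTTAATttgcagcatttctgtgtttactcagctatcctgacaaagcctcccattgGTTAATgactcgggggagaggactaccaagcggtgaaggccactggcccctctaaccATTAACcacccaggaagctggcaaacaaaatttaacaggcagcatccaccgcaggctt
SERPINA1, chr14:94388603-94388852, minus strand: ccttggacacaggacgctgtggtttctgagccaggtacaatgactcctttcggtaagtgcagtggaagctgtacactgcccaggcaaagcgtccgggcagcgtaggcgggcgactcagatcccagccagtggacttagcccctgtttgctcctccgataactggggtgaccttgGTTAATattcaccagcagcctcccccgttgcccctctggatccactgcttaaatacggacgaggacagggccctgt
SERPINA4, chr14:94561192-94561441, plus strand: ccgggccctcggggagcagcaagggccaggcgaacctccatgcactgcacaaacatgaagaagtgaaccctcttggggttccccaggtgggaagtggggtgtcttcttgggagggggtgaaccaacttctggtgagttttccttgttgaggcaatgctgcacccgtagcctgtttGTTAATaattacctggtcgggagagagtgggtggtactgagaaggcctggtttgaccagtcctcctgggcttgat
SERPINA5, chr14:94581176-94581425, plus strand: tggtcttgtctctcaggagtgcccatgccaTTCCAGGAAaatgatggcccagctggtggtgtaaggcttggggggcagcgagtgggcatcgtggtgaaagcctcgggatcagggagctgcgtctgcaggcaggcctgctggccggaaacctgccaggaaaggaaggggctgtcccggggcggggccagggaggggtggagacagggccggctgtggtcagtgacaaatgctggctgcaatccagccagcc
SERPINA3, chr14:94612141-94612390, plus strand: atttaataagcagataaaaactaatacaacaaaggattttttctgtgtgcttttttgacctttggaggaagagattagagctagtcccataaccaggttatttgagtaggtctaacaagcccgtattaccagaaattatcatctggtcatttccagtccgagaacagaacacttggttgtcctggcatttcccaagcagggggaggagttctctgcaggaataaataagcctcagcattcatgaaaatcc

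The letters GTTAAT stood in 6.23% of 35116 RefSeq windows of the same length, and TTCNNNGAA in 6.57%. The 25 serpin genes with a window had 36 windows, of which 7 held GTTAAT, each of a different gene, among them SERPINA6, SERPINA1, SERPINA4, SERPINA10 and SERPINA7. SERPINA6 held it 3 times. TTCNNNGAA was present in 8 of the 36 windows, also of different genes, among them SERPINA5, SERPINA6 and SERPINA11. No window held an overlap between the motifs. Among the 9 genes with a window and higher signal, 3 held GTTAAT and 2 held TTCNNNGAA. Among the other 16 genes, 4 and 6 did. SERPINA3, with the largest difference, held neither. A match of letters is a description and not a measured binding site.

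Target proteases and cofactors of serpins were read next. Of 32 such genes, all measured, 13 were higher and 1 was lower at an unadjusted p under 0.05, against 7.10% higher and 7.03% lower of all probe sets and 12.2% higher of those above the median level. Their median difference was 0.27, against -0.03 over all probe sets, and 12 of the 32 were dim. Those with the smallest p were cathepsin S, CTSS (1.60, SE 0.26), the complement protease MASP2 (1.03, SE 0.18), plasma prekallikrein, KLKB1 (1.02, SE 0.19), and the complement protease C1S (2.44, SE 0.53). By the rule for larger differences, C1R (1.03), TMPRSS6 (1.49), a membrane protease of iron control, and factor XI, F11 (1.26), are also named. F11 differed by 0.96 without control tumour 1 and by 1.70 without control tumour 2. None of the 32 passed after adjustment over all probe sets.

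SERPING1 and its targets can be set side by side. In limma, SERPING1 differed by 0.90, while C1R, C1S, MASP2 and KLKB1 differed by 1.03, 2.44, 1.03 and 1.02, and factor XII, F12, by 0.86. F12 read 9.11, 8.82 and 8.74 in IR-A tumours, against 7.20, 8.67 and 8.23 in control tumours, and differed by 0.44 without control tumour 1. C1S read 9.07, 8.13 and 8.50 in IR-A tumours, against 5.62, 7.34 and 5.41 in control tumours, so control tumour 2 was again the highest control. Among targets of the clotting serpins, factor XI differed by 1.26 and factor X, F10, by 0.50, but prothrombin, F2, by 0.11 with an interval from -0.25 to 0.47. Protein C, PROC, the target of SERPINA5, differed by 0.23 with an interval from -0.09 to 0.54. Plasminogen, PLG, the source of the plasmin that SERPINF2 blocks, differed by 0.60 with an interval from -0.28 to 1.49, and by 0.15 without control tumour 1. Granzyme B, GZMB, and cathepsin G, CTSG, the targets of SERPINB9 and SERPINA3, are made by immune cells, were dim, and differed by 0.02 and 0.04. Of other targets of SERPINB1, proteinase 3, PRTN3, which was dim and the 1 lower gene of the list, differed by -0.47 (-0.30 without IR-A tumour 1), and neutrophil elastase, ELANE, by -0.21 with an interval from -0.52 to 0.11. No difference between a serpin and its target was tested.

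**Figure D5:**
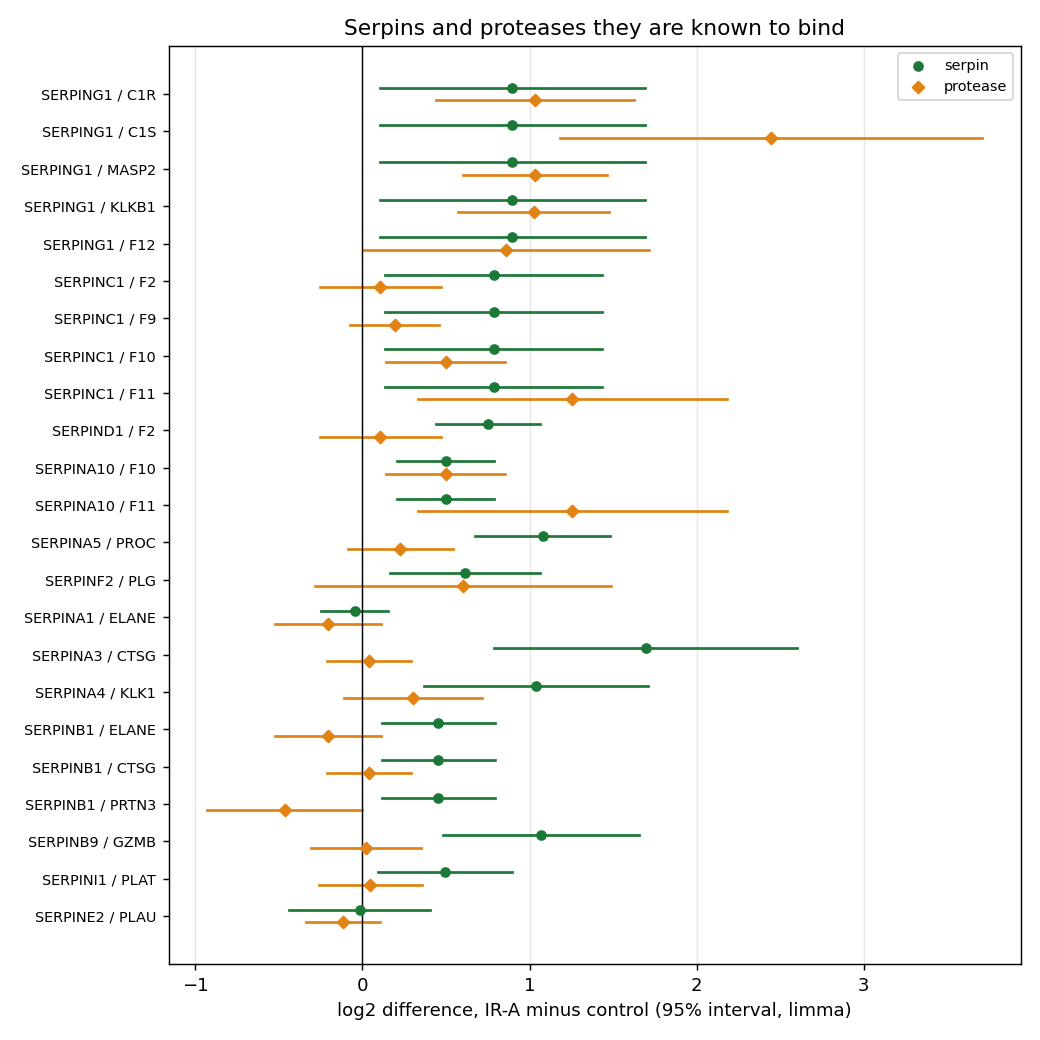
Log2 difference, IR-A minus control, with 95% intervals from limma for serpins (green circles) and proteases they are known to bind (orange diamonds), 1 pair per row. Pairs were drawn up after the values were seen. The targets of SERPING1 lie to the right of 0, with C1S at 2.44, whereas GZMB, CTSG and F2 lie near 0, at 0.02, 0.04 and 0.11.

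Of 27 measured protease inhibitors of other families, 9 were higher and 0 lower at an unadjusted p under 0.05 in limma, against the same 7.10% and 7.03% of all probe sets and 12.2% higher of those above the median level. None passed after adjustment, and their median difference was 0.21, against -0.03 over all probe sets. Of the 27, 9 were dim. The smallest p belonged to the metalloproteinase inhibitors TIMP2 (1.16, SE 0.20) and TIMP3 (0.54), the inter-alpha-trypsin inhibitor chain ITIH2 (0.46) and kininogen, KNG1 (1.80, SE 0.50). KNG1 differed by 1.39 without control tumour 1 and by 2.41 without control tumour 2. ITIH1 (1.56) and the dim tissue factor pathway inhibitor TFPI2 (1.03) are named for their size, and each rested in part on 1 tumour. ITIH1 differed by 1.02 without control tumour 1, and TFPI2 by 0.61 without IR-A tumour 1. Of 7 measured hormone carriers and genes of the renin-angiotensin system, 0 reached an unadjusted p under 0.05 in limma, and 0 passed after adjustment. Angiotensinogen, AGT, a non-inhibitory serpin by structure, read 12.59, 12.43 and 12.62 in IR-A tumours, against 12.35, 12.31 and 12.47 in control tumours, and overlapped slightly (0.17, interval -0.06 to 0.41). Transthyretin, TTR, which carries thyroxine like SERPINA7, differed by 0.22 with an interval from -0.11 to 0.55.

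Among 16 measured regulators known to act on serpin genes of the liver, 5 were higher and 1 was lower at an unadjusted p under 0.05. The shares over all probe sets were 7.10% and 7.03%, and 12.2% were higher among those above the median level, where all 16 lay. None of the 16 passed after adjustment. Their median difference was 0.0052, with 9 above 0 and 7 below. The interleukin-6 receptor chain IL6R (0.94, SE 0.20), the transcription factor STAT3 (0.99, SE 0.21), the acute phase factor CEBPD (0.84, SE 0.20), the interleukin-1 receptor IL1R1 (1.29, SE 0.36) and the TGF-beta receptor TGFBR1 (0.43) had higher signal. IL1R1 differed by 0.94 without control tumour 3 and by 1.70 without control tumour 2. In IL6ST (0.0029), CEBPA (0.0076), CEBPB (-0.14) and ONECUT1 (1.01) the groups overlapped. HSF1, the heat shock factor that drives SERPINH1, had lower signal: it read 7.00, 7.03 and 6.99 in IR-A tumours, against 7.60, 7.54 and 7.64 in control tumours. Its log2 difference was -0.59 (SE 0.08; adjusted p = 0.126 in limma), while SERPINH1 itself overlapped between groups. TGFBR1 is named because the count of 5 includes it, after its values were seen. IL6ST, CEBPA, CEBPB and ONECUT1 were also chosen after their values were seen.

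Markers of hepatocytes and of host cells were read beside these results. Over all probe sets, 7.10% were higher and 7.03% lower at an unadjusted p under 0.05, and 12.2% were higher above the median level. No marker passed after adjustment. All 11 measured hepatocyte markers differed by more than 0, with a median of 0.35, and 6 were higher at an unadjusted p under 0.05. Their summed linear signal was 60131 to 65054 in IR-A tumours and 48295 to 58169 in control tumours, highest of the controls in control tumour 2. Of 10 fibroblast markers, 3 were higher at that p, namely LUM (1.26, dim), COL1A2 (0.83) and COL1A1 (0.40), and 3 lay below 0. PDGFRA differed by -0.87 with an interval from -2.23 to 0.49, and read 7.86 in control tumour 1. FAP was dim and lower in all IR-A tumours, by -0.08. Sums were 347 to 381 in IR-A tumours and 274 to 469 in control tumours. The fibroblast gene DCN was near the lowest signals in both groups, at 2.56 and 2.57. Of 9 macrophage markers, 2 were higher and 1 was lower at that p, and 5 lay below 0, with sums of 1916 to 2532 in IR-A tumours and 1126 to 1841 in control tumours. TYROBP (1.78) and CD68 (0.62) were the higher ones, and FCER1G (-0.60), which was dim, the lower one. CD68 read 10.95 in IR-A tumours and 10.33 in control tumours on average and makes up most of these sums, while CD14, CD163 and MRC1 were dim. Endothelial sums were 157 to 174 in IR-A tumours and 139 to 165 in control tumours, and keratinocyte sums 277 to 352 and 266 to 362. Of 9 endothelial markers, 8 were dim, 6 lay below 0 and 1 was higher at that p. It was PECAM1 (0.51, and 0.34 without IR-A tumour 1). Of 8 measured keratinocyte markers, 0 reached that p. The part of these shifts in the serpin results was not tested. In bulk tumours, fewer cells of a type and less RNA per cell cannot be told apart.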

How the data were processed

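Each of 6 tumours was hybridised to 1 Affymetrix array. The authors deposited a log2 signal for every probe set. Per the submitters' processing notes, RMA and Partek were used, with no version or role named. Neither array model nor genome build is given in the sources used here. Detection above background was not used here, and the number of arrays limits the precision.

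GEO's probe annotation named 23934 of 24726 probe sets, and the other 792 were unnamed here. All 32 serpin genes matched the RefSeq gene table of GRCh38.p14 by gene ID, which was used for gene order, and 25 had a promoter window. IR-A was compared with control in limma 3.58.1 (R 4.3.3; lmFit, eBayes, no trend, no filter), and p-values were adjusted across the whole table by Benjamini-Hochberg (threshold 0.05). SE and 95% intervals are the moderated ones, and a gene is called dim where its mean lies below the median probe set. The scripts were tested on simulated data. Figures were drawn with matplotlib 3.10.9.

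Every serpin gene was named, with array values where the unadjusted p was under 0.05 or the groups did not overlap. From other lists, up to 4 genes of smallest p were named, and any with separate groups and a difference of at least 1. Values added for comparison, such as those of SERPINA1 and protease targets, were chosen after they were seen. The members and lists were chosen with earlier results of these data known. Alternatives were quantile normalization, centring, filters on dim probe sets, trend, robust moderation, array weights, the replicate block and leaving out each tumour.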

Additional observations from a re-analysis of the deposited data

How the results depend on the processing

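The cause of each change below was not tested, except that filters leave fewer genes. Probe sets called after adjustment numbered 0 as reported, 14 and 20 without the dimmest 25% and 50%, 11 with array weights, and 0 to 308 with 1 tumour left out. Serpin genes called numbered 0 in all settings except without control tumour 2, where there were 2 (range 0 to 2). The count of serpin genes with higher signal at an unadjusted p under 0.05, 13 as reported, was 7 to 13 over the left-out tumours, lowest without IR-A tumour 1, and 12 with the replicate block. It was also 12 without the dimmest 50%, a filter that leaves out SERPINA7. The count with lower signal, 1 as reported, was 0 with the replicate block and 0 without the dimmest 25% or 50% (SERPINA12 is left out only by the second filter), and 0 to 1 over the left-out tumours. The median difference of the serpin genes was 0.49 under either filter, where 20 and 18 members were left. It was 0.087 with array weights and -0.0078 to 0.091 over the left-out tumours. INSR passed without the dimmest 25% or 50% (2.95 in both) and with array weights (2.87), and ran from 2.74 to 3.17 over the left-out tumours, passing without control tumour 2. The 15 serpin genes given with array values by the rule kept their direction in all 206 fits run on them over 14 settings. The labels number the tumours 1 to 3 in both groups. Deviations of same-numbered tumours from their group means correlated at -0.29, -0.36 and 0.02, and no IR-A tumour correlated best with its own number. With 3 tumours in each group, whose deviations sum to 0, these values cannot exclude a pairing. Dim genes carry the least certain differences.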

Other observations

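Among pseudogenes of the family, SERPINA13P, which lies beyond SERPINA3 on chromosome 14, read 4.08, 4.15 and 4.11 in IR-A tumours, against 4.44, 3.67 and 4.27 in control tumours, and SERPINB9P1, between SERPINB1 and SERPINB9 on chromosome 6, read 3.29, 3.94 and 3.36 in IR-A tumours, against 3.79, 3.46 and 3.67 in control tumours. Both were below the median probe set and overlapped between the groups, although the genes beside them had higher signal in IR-A tumours.

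The cysteine cathepsins, which a few serpins of clade B can inhibit, differed by 1.60 for CTSS and 0.59 for CTSL, the second by 0.35 without control tumour 3. CTSS read 7.55, 7.02 and 7.39 in IR-A tumours, against 5.89, 6.09 and 5.17 in control tumours. Its groups did not overlap, and its difference did not pass after adjustment (adjusted p = 0.131 in limma).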
